A study of Mus musculus with 12 samples.

Results

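The liver makes most of the proteins that clot blood and dissolve clots, and 10 of their genes were followed here in mouse liver progenitor cells: the 3 fibrinogen chains (Fga, Fgb, Fgg), the coagulation factors prothrombin (F2), factor V (F5), factor VII (F7) and factor X (F10), plasminogen (Plg), and the inhibitors antithrombin (Serpinc1) and heparin cofactor II (Serpind1). They were chosen by name as clotting proteins secreted by hepatocytes, and all 10 were measured, among 12393 genes on the array. These genes and the lists set beside them below were chosen with earlier results of these data known. Their counts beside all genes are therefore a description. The cells were BMEL (bipotential mouse embryonic liver) cells of the lines 9A1 and 14B3, isolated independently from day 14 embryonic liver of CBA/J x C57Bl/6J mice, with no genetic change given in the labels. Each line was kept in basal culture, as aggregates for 5 days, or on Matrigel, a basement membrane gel, for 10 days, with 2 Affymetrix mouse 430A arrays for each of the 6 combinations and 12 arrays in all. The 14B3 Matrigel replicate 1 differed in that its label gave 5 days, and no age was given for the basal cultures. Time in culture therefore cannot be told apart from the difference between Matrigel and aggregates.

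Fibrinogen circulates as a dimer of 3 different chains, and thrombin, cut from prothrombin by factor Xa with factor Va as cofactor, turns it into fibrin. Tissue factor with factor VII starts the chain of reactions by activating factor X, antithrombin and heparin cofactor II inhibit thrombin, and plasmin, cut from plasminogen, dissolves the clot. These genes are switched on as hepatocytes mature, and transcription of the fibrinogen genes rises further in the acute phase response to interleukin 6.

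The 3 fibrinogen genes lie next to each other on mouse chromosome 3, in the order Fgg, Fga, Fgb, and F7 and F10 are neighbours on chromosome 8, followed by Proz. Of the 10 genes, 9 had an entry in the RefSeq promoter table, and Plg did not. At the fibrinogen locus and at that of F7 and F10, some genes passed a culture test and a neighbour did not. Whether neighbours differed from each other was not tested. The sequences upstream of the fibrinogen genes and of the F7 and F10 pair are shown as a description. Each is the 250 bases before the annotated start, 5′ to 3′ in the direction of transcription, from RefSeq on GRCm38.p6, and capitals mark exact matches to the motifs named after them. Fga lies at chr3:83025903-83026152 on the plus strand, Fgb at chr3:83049864-83050113 on the minus strand and Fgg at chr3:83007474-83007723 on the plus strand. F7 lies at chr8:13025784-13026033 on the plus strand and F10 at chr8:13037058-13037307 on the plus strand.
Fga: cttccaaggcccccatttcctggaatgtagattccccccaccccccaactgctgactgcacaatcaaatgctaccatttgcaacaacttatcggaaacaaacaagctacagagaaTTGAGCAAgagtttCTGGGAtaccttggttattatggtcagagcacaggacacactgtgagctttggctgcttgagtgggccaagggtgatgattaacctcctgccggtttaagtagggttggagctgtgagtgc
Fgb: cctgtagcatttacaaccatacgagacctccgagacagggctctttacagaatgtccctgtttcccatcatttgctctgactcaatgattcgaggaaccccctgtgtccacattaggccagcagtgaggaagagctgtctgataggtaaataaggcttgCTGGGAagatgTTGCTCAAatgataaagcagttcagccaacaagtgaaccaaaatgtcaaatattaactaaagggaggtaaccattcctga
Fgg: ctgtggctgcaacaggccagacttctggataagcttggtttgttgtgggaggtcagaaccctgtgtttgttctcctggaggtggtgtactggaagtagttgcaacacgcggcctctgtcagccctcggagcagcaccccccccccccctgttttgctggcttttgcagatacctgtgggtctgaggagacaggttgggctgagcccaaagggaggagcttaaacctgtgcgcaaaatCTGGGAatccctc
F7: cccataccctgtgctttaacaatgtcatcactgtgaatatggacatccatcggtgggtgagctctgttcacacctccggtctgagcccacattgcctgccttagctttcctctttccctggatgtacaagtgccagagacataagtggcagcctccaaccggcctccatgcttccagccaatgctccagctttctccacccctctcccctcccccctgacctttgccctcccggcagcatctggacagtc
F10: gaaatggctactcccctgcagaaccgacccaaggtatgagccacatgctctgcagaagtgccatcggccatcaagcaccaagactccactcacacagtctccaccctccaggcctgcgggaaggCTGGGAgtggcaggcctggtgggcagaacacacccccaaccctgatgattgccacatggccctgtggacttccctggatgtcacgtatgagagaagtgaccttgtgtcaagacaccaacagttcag

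Both strands were searched for the HNF4 site CAAAGTCCA, the C/EBP site TTGCNNAA, the interleukin 6 response element CTGGGA and the TATA box TATAAA, and no marked matches overlapped. Fga held a C/EBP match on the opposite strand at -135 to -128 from the start and CTGGGA at -121 to -116. Fgb held the same 2 motifs, at -80 to -73 and -91 to -86. Of the 9 upstream sequences, those of Fga and Fgb held the C/EBP site, which 9.56% of all 32851 promoters in the table held. Fgg held CTGGGA at -13 to -8, and F10 held it at -126 to -121. Serpind1, whose sequence is not shown, held it on the opposite strand at -246 to -241. CTGGGA was thus found in 5 of the 9 upstream sequences and in 27.0% of all promoters. F7 held none of the 4 motifs, and the HNF4 site (0.384% of all promoters) and the TATA box (12.4%) were found in none of the 9. A match or its absence describes only these letters in this window.

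The cells changed their hepatocyte markers with culture, and the clotting genes are read against this background. By the limma test used below, 22.9% of all genes rose in aggregates and 46.3% changed in either direction. On Matrigel these shares were 14.1% and 28.4%. Of 10 measured hepatocyte markers, 8 rose in aggregates and 6 on Matrigel, none fell in either, and their summed intensity per array was 4702 to 7300 in basal culture, 41480 to 65430 in aggregates and 34650 to 43510 on Matrigel. Albumin (Alb) rose by 4.38 in aggregates and by 4.46 on Matrigel on the log2 scale (limma, adjusted p = 4.07e-06 and 1.35e-05). In a bulk RNA sample, fewer cells of a type and less RNA per cell cannot be told apart. No megakaryocyte or platelet marker of 9 passed the limma test in a culture comparison, with 1 at an unadjusted p below 0.05 for Matrigel against aggregates and 0 for the others, and their summed intensity was 1751 to 2201 in basal culture, 1960 to 2402 in aggregates and 1585 to 2165 on Matrigel. Macrophage and leukocyte markers gave 2 higher and 1 lower of 10 in aggregates, with Csf1r highest at 1.48, 2 higher (Csf1r and Cd68) and 1 lower (Cd14) on Matrigel, and sums of 2913 to 3785, 3139 to 5635 and 2743 to 3991 in the 3 cultures. Endothelial markers gave 1 higher of 10 in aggregates and 1 on Matrigel, with sums of 1615 to 2012, 1920 to 2156 and 1481 to 2278. Of 7 bile duct markers, 3 rose and 2 fell in aggregates, 4 rose on Matrigel, and their sums were 15940 to 20380, 16900 to 21500 and 19540 to 23620. None of these markers is listed at 0, since array values always hold some background, and their part in the clotting gene results was not tested.

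Levels below are log2 of the deposited intensity, and differences are log2 differences averaged over the lines, with the standard error (SE) of the fit and p-values adjusted over all 12393 genes. Levels are compared between cultures for 1 probe set at a time and not between genes. As a loose guide to the reading of RNA that is not there, 28 genes of other organs had mean levels from 4.50 to 9.23 with quartiles of 6.28 and 8.08, and the mean of every clotting gene over the 12 arrays lay below the median of all genes, 8.46. Every basal level and every Matrigel level of the 10 genes lay within the range of 4.50 to 9.23. The same held for every aggregate level of Fgg, F2, F5, F7, Plg and Serpinc1. These levels are therefore no evidence of expression by themselves. A fold against basal culture is a ratio of array readings and holds only against that basal reading. Array medians were 267.6 to 281.1 in intensity.

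In aggregate culture the fibrinogen alpha and beta chains, prothrombin, factor V, factor X and heparin cofactor II rose, while factor VII, plasminogen, antithrombin and the fibrinogen gamma chain did not pass the test. These 6 of 10 were all higher, where 22.9% of all genes rose and 46.3% changed in either direction, and the median difference over the 10 genes was 0.55 against 0.10 over all genes. On Matrigel, Fga, Fgb, F5 and F10 rose, 4 of 10, where 14.1% of all genes rose and 28.4% changed in either direction, with a median of 0.34 against -0.04. Between Matrigel and aggregates, F5 was higher on Matrigel and Fga, F10 and Serpind1 were lower, where 26.7% of all genes changed, 13.9% higher and 12.7% lower, and the medians were -0.27 and -0.10. Both comparisons with basal culture use the same 4 basal arrays, and the values of each are given side by side.

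**Figure D1:**
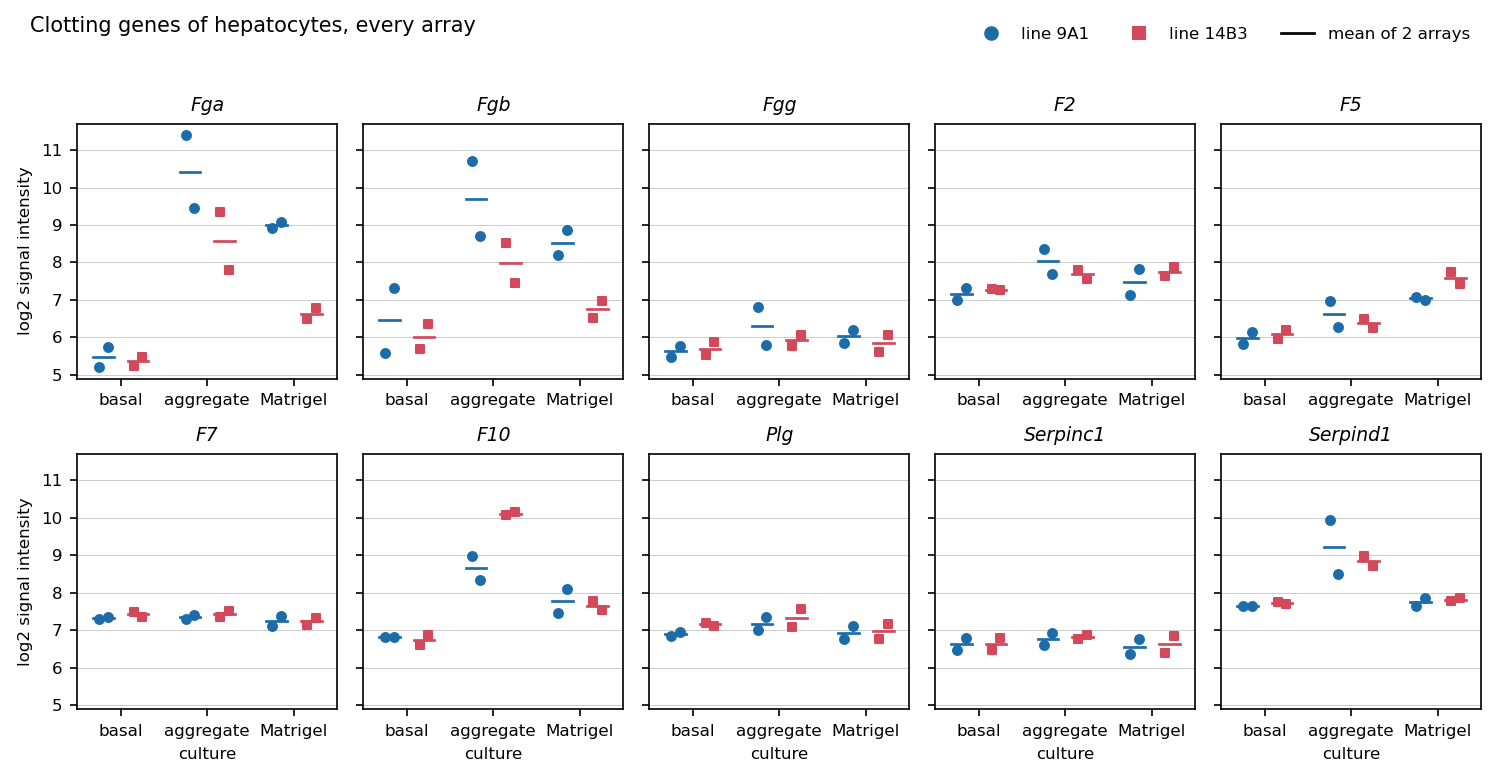
Level of each of the 10 clotting genes on every array, as log2 intensity on the vertical axis and culture on the horizontal axis, with 9A1 and 14B3 as separate symbols and a bar at the mean of each pair of arrays. Fga ran from 5.21 to 5.74 in basal culture and from 7.80 to 11.40 in aggregates, F10 separated all 3 cultures, and F7 stayed between 7.11 and 7.50.

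Fga encodes the alpha chain of fibrinogen. Its level was 5.21 and 5.74 on the 2 basal 9A1 arrays and 5.23 and 5.49 on the basal 14B3 arrays, 11.40 and 9.45 (9A1) and 9.35 and 7.80 (14B3) in aggregates, and 8.91 and 9.09 (9A1) and 6.48 and 6.79 (14B3) on Matrigel. Every aggregate and Matrigel array was above every basal array, and within each culture away from basal the 9A1 arrays were above the 14B3 arrays. The mean was 5.42 ± 0.25 (SD, n = 4) in basal culture, 9.50 ± 1.47 in aggregates and 7.82 ± 1.37 on Matrigel. Fga read 17.0-fold higher in aggregates than its basal reading (log2 difference 4.08, SE 0.39, limma adjusted p = 3.27e-06) and 5.28-fold higher on Matrigel (2.40, SE 0.39, adjusted p = 0.000656). It was 3.21-fold lower on Matrigel than in aggregates (log2 difference -1.68, SE 0.39, adjusted p = 0.00738), although the arrays of these 2 cultures overlapped because the lines lay apart.

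Fgb encodes the beta chain. Its basal levels were 5.59 and 7.33 in 9A1 and 5.69 and 6.35 in 14B3, its aggregate levels 10.70 and 8.71 in 9A1 and 8.53 and 7.46 in 14B3, and its Matrigel levels 8.19 and 8.87 in 9A1 and 6.51 and 6.98 in 14B3. All aggregate arrays were above all basal arrays, though only narrowly for 14B3 replicate 2 over 9A1 basal replicate 2, and the Matrigel arrays overlapped with both other cultures. Fgb read 6.11-fold higher in aggregates than its basal reading (log2 difference 2.61, SE 0.45, limma adjusted p = 0.000453). On Matrigel it was 2.64-fold higher (1.40, SE 0.45, adjusted p = 0.0379). That call was lost without any of 6 arrays: without 9A1 basal replicate 1 the difference was 0.96 with an adjusted p of 0.159, without 14B3 basal replicate 1 1.23 and 0.130, and without 1 of the 4 Matrigel arrays 1.23 to 1.57 and 0.0511 to 0.122. With array weights the adjusted p of the limma fit was 0.0623. The weights came out equal for both arrays of each group, so they could not move the difference of 1.40 or single out an array. The difference between Matrigel and aggregates was -1.21 (SE 0.45, adjusted p = 0.0687). It passed the test without 9A1 aggregate replicate 2 (-1.71) and without either of the 9A1 basal arrays (-1.21). Without 9A1 aggregate replicate 1 it was -0.72.

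Fgg encodes the gamma chain and lies beside Fga on the chromosome. Its levels were 5.47, 5.78, 5.53 and 5.86 in basal culture, 6.81, 5.80, 5.78 and 6.07 in aggregates and 5.86, 6.19, 5.61 and 6.07 on Matrigel, in the order 9A1 replicates 1 and 2, then 14B3 replicates 1 and 2. The cultures overlapped, and 9A1 aggregate replicate 1 alone stood above the rest. The difference between aggregates and basal culture was 0.45 (SE 0.21, 95% interval 0.00 to 0.90, limma adjusted p = 0.0947). Without 9A1 aggregate replicate 1 it was 0.20, and without 9A1 aggregate replicate 2 it was 0.71. On Matrigel it was 0.27 (SE 0.21, adjusted p = 0.412). The mean level over the 12 arrays, 5.90, lay at percentile 7.69 of all genes, the lowest of the 10. Across the 12 arrays the Pearson correlation of Fga with Fgb was 0.96, that of Fgb with Fgg 0.81 and that of Fga with Fgg 0.73, values that share arrays, cultures and lines and are given as a description.

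**Figure D2:**
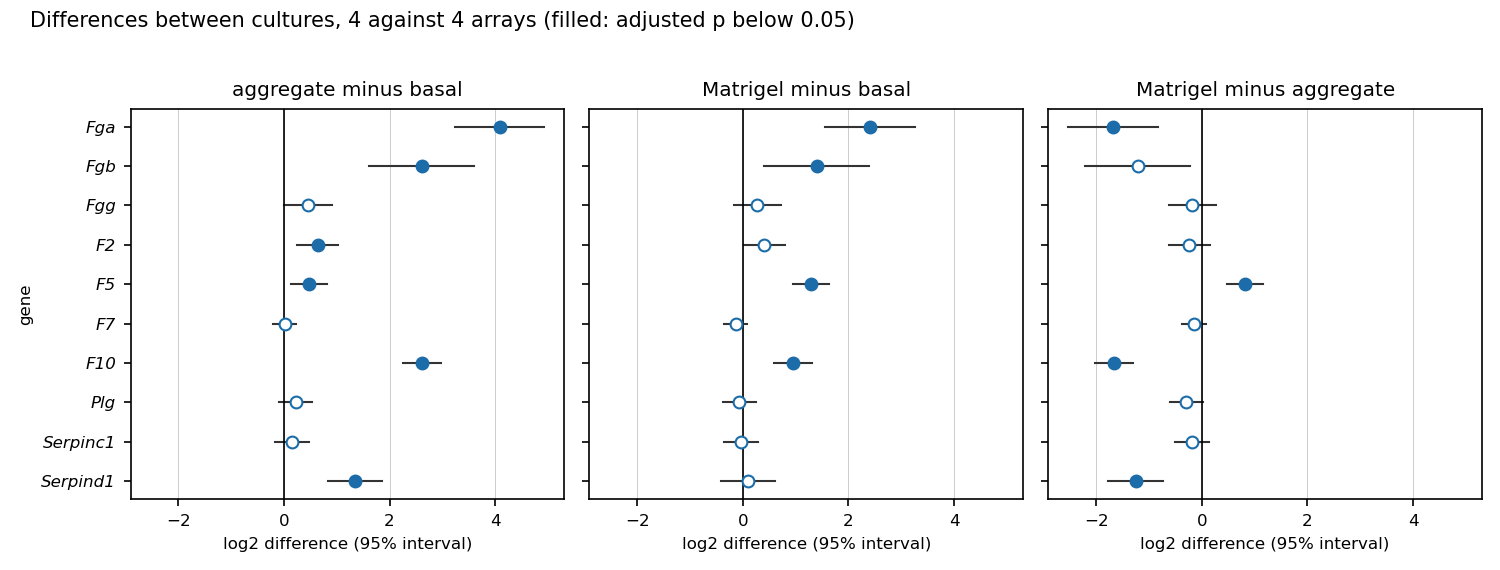
Log2 difference of each clotting gene for aggregates against basal culture, Matrigel against basal culture and Matrigel against aggregates, averaged over both lines, on the horizontal axis, with 95% intervals from the fit as bars. Filled points have a limma adjusted p below 0.05, and open points do not: 6 of 10 genes are filled for aggregates, 4 for Matrigel and 4 for Matrigel against aggregates.

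F10 encodes factor X, the protease that cuts prothrombin. Its brightest probe set read 6.81 and 6.82 in basal 9A1 and 6.62 and 6.86 in basal 14B3, 8.98 and 8.34 in 9A1 aggregates and 10.08 and 10.15 in 14B3 aggregates, and 7.47, 8.11, 7.77 and 7.53 on Matrigel. The 3 cultures did not overlap, and unlike the fibrinogen chains its highest arrays were those of 14B3. It read 6.10-fold higher in aggregates than its basal reading (log2 difference 2.61, SE 0.16, limma adjusted p = 1.15e-07), 1.92-fold higher on Matrigel (0.94, SE 0.16, adjusted p = 0.00113) and 3.18-fold lower on Matrigel than in aggregates (-1.67, SE 0.16, adjusted p = 2.93e-05).

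The other 2 probe sets of F10 moved far less, and the size of its change depends on the probe set. In aggregates 1418992_at rose by 0.40 (adjusted p = 0.0103) and 1418993_s_at by 0.52 (adjusted p = 0.0070), against 2.61 for 1449305_at, in a limma fit to every probe set. On Matrigel the same pair differed from basal culture by 0.08 (adjusted p = 0.674) and 0.13 (adjusted p = 0.576), so the Matrigel change was called on 1 of 3 probe sets. Matrigel minus aggregate was -0.31 (adjusted p = 0.0548) and -0.39 (adjusted p = 0.0510) on them, below 0 as on the brightest.

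F5 encodes factor V, the cofactor of factor X, and had a different order of cultures. Its levels were 5.81, 6.14, 5.96 and 6.21 in basal culture, 6.97, 6.28, 6.50 and 6.26 in aggregates and 7.08, 7.00, 7.76 and 7.43 on Matrigel, with the 9A1 arrays first. All 4 Matrigel arrays were above all aggregate arrays, and these above all basal arrays. F5 read 2.44-fold higher on Matrigel than its basal reading (log2 difference 1.29, SE 0.16, limma adjusted p = 7.89e-05) and 1.76-fold higher than in aggregates (0.82, SE 0.16, adjusted p = 0.00229). Its other probe set gave 1.25 (adjusted p = 0.00088) and 0.83 (adjusted p = 0.0117) for these comparisons.

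The aggregate rise of F5 was small and close to the threshold. It was 1.38-fold (0.47, SE 0.16, limma adjusted p = 0.0267). The call was lost on the other probe set (0.43, adjusted p = 0.109), with the mean of both probe sets (0.45, adjusted p = 0.0556), after quantile normalization (0.37, adjusted p = 0.104) and without 9A1 basal replicate 1 (0.39, adjusted p = 0.108), 14B3 basal replicate 1 (0.41, adjusted p = 0.0987), 9A1 aggregate replicate 1 (0.30, adjusted p = 0.115) or 14B3 aggregate replicate 1 (0.41, adjusted p = 0.0832).

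F2 encodes prothrombin, the precursor of thrombin. It read 6.99, 7.33, 7.29 and 7.27 in basal culture, 8.36, 7.69, 7.80 and 7.56 in aggregates and 7.14, 7.82, 7.63 and 7.89 on Matrigel. The aggregate arrays lay above the basal ones, and the Matrigel arrays overlapped with both. F2 read 1.56-fold higher in aggregates than its basal reading (log2 difference 0.64, SE 0.18, limma adjusted p = 0.0105). Matrigel minus basal was 0.40 (SE 0.18, adjusted p = 0.123). It was 0.57 without 9A1 Matrigel replicate 1, where it passed, and 0.23 without 9A1 Matrigel replicate 2.

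F7 encodes factor VII, the partner of tissue factor, and did not pass the test in any culture comparison. Its 12 arrays ran from 7.11 to 7.50, with means of 7.38 ± 0.08 in basal culture, 7.39 ± 0.09 in aggregates and 7.24 ± 0.13 on Matrigel (SD, n = 4 each). The difference was 0.01 in aggregates (95% interval -0.21 to 0.23, limma adjusted p = 0.934) and -0.14 on Matrigel (-0.36 to 0.08, adjusted p = 0.401). These levels lay within the quartiles of the genes of other organs, 6.28 and 8.08, so a change in F7 may not register on this probe set. Proz, which follows F10 on the chromosome, encodes the cofactor protein Z. It ran from 6.28 to 6.63 in basal culture, from 7.98 to 8.88 in aggregates and from 6.66 to 7.19 on Matrigel. The cultures did not overlap. Proz rose by 1.90 in aggregates (SE 0.13, limma adjusted p = 2.95e-07), differed from basal by 0.38 on Matrigel (adjusted p = 0.0538) and gave -1.52 for Matrigel against aggregates (adjusted p = 1.49e-05).

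**Figure D3:**
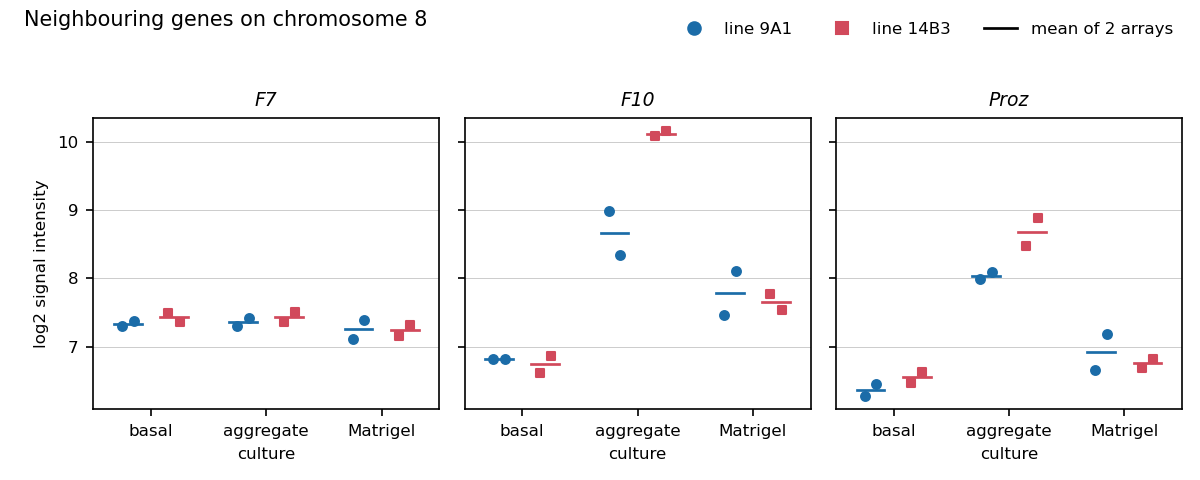
Log2 intensity of the chromosome 8 neighbours F7, F10 and Proz on each of the 12 arrays, by culture and line. F7 stayed between 7.11 and 7.50, while F10 and Proz were highest in aggregates, where F10 ran from 8.34 to 10.15 and Proz from 7.98 to 8.88.

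Plasminogen (Plg), the precursor of plasmin, read 6.85, 6.94, 7.19 and 7.13 in basal culture, 7.00, 7.35, 7.08 and 7.58 in aggregates and 6.78, 7.10, 6.78 and 7.17 on Matrigel, and the cultures overlapped. The differences were 0.22 in aggregates (95% interval -0.09 to 0.54, limma adjusted p = 0.232) and -0.07 on Matrigel (-0.38 to 0.25, adjusted p = 0.815). Matrigel minus aggregate was -0.29 (SE 0.14, adjusted p = 0.148), and with the replicate number as a block shared by both lines the adjusted p was 0.0369.

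Of the 2 thrombin inhibitors, Serpind1 (heparin cofactor II) read 7.65, 7.64, 7.76 and 7.71 in basal culture, 9.95, 8.50, 8.98 and 8.73 in aggregates and 7.64, 7.86, 7.77 and 7.86 on Matrigel. The aggregate arrays stood apart from both other cultures, which overlapped. It read 2.55-fold higher in aggregates than its basal reading (log2 difference 1.35, SE 0.23, limma adjusted p = 0.000435) and 2.39-fold lower on Matrigel than in aggregates (-1.26, SE 0.23, adjusted p = 0.00199). On Matrigel it differed from basal culture by 0.10 (95% interval -0.42 to 0.61, adjusted p = 0.846).

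Serpinc1 (antithrombin) read 6.46, 6.78, 6.48 and 6.79 in basal culture, 6.61, 6.91, 6.75 and 6.87 in aggregates and 6.36, 6.77, 6.39 and 6.86 on Matrigel. Replicate 2 was above replicate 1 in 6 of 6 groups, by 0.12 to 0.47 with a median of 0.31. The culture differences were 0.16 in aggregates (95% interval -0.16 to 0.48, limma adjusted p = 0.409) and -0.04 on Matrigel (-0.36 to 0.29, adjusted p = 0.915).

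Leaving out the 14B3 Matrigel array labelled 5 days kept the calls of Fga (2.48, limma adjusted p = 0.00201), F5 (1.21, adjusted p = 0.00045) and F10 (0.88, adjusted p = 0.00509) for Matrigel against basal culture, and Fgb then gave 1.51 with an adjusted p of 0.0546. For Matrigel against aggregates, Fga (-1.60, adjusted p = 0.0275), F10 (-1.73, adjusted p = 0.000142), Serpind1 (-1.23, adjusted p = 0.00827) and F5 (0.74, adjusted p = 0.0114) were still called without it.

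Between the lines, averaged over the cultures, Fga was the only one of the 10 genes that passed the test, where 6.01% of all genes changed in either direction and 3.45% were lower in 14B3. It was 2.72-fold lower in 14B3 than in 9A1 (log2 difference -1.44, SE 0.32, limma adjusted p = 0.0195). The call was lost, with an adjusted p of 0.0505 to 0.0551, without any 1 of 5 arrays: 9A1 basal replicate 2 (-1.35), 14B3 basal replicate 1 (-1.40), 14B3 aggregate replicate 2 (-1.19), 9A1 Matrigel replicate 2 (-1.41) or 14B3 Matrigel replicate 1 (-1.39). Fgb differed by -1.31 (SE 0.37, adjusted p = 0.0629). It passed without 9A1 basal replicate 1 (-1.60) or 9A1 aggregate replicate 2 (-1.64), and was -0.98 without 9A1 aggregate replicate 1. F10 differed by 0.41 (SE 0.13, adjusted p = 0.111). It passed without 9A1 aggregate replicate 1 (0.52) or 9A1 Matrigel replicate 2 (0.52), and its lowest value with 1 array left out was 0.31. Markers also differed between the lines: 2 of 10 hepatocyte markers were lower in 14B3 (Serpina1b, -1.77, and Cps1, -1.03), 3 of 7 bile duct markers were lower (Cftr, Krt7 and Sox9, -0.57 to -1.01), 1 of 10 macrophage and leukocyte markers was lower (Csf1r, -1.13) and 2 of 10 endothelial markers were higher (Cdh5, 0.64, and Vwf, 0.39). No megakaryocyte or platelet marker of 9 passed the limma test, with 0 at an unadjusted p below 0.05. Their part in the line results was not tested.

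Within single cultures, no clotting gene passed the limma test between the lines in basal culture, with 0 of 10 at an unadjusted p below 0.05, where 1.90% of all genes passed. In aggregates F10 was 2.73-fold higher in 14B3 (log2 difference 1.45, SE 0.23, limma adjusted p = 0.00804, with 1.53% of all genes called), and this call was lost without 9A1 aggregate replicate 2 (1.13, adjusted p = 0.0563) or 14B3 aggregate replicate 2 (1.41, adjusted p = 0.0826) and on the other F10 probe sets (0.44 and 0.35, adjusted p = 0.389 and 0.752). Fga and Fgb gave -1.85 and -1.71 there, with adjusted p-values of 0.210 and 0.423. These values turned on single arrays: Fga gave -2.83 without 9A1 aggregate replicate 2 (limma adjusted p = 0.0132) and -0.87 without 9A1 aggregate replicate 1 (adjusted p = 0.780), and Fgb gave -2.70 and -0.71 (adjusted p = 0.0770 and 1.00). On Matrigel Fga was 5.14-fold lower in 14B3 (-2.36, SE 0.55, adjusted p = 0.0356, with 3.77% of all genes called). Without 1 of the 4 Matrigel arrays that difference was -2.21 to -2.52 with adjusted p-values of 0.110 to 0.193, and without either 14B3 basal array the adjusted p was 0.0527.

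The rise in aggregates was seen in each line for most of the genes that rose on average. Fga rose by 4.95 in 9A1 and 3.22 in 14B3 (limma adjusted p = 2.14e-05 and 0.000689), Fgb by 3.25 and 1.98 (0.00166 and 0.0329), F10 by 1.85 and 3.37 (5.91e-05 and 7.76e-07) and Serpind1 by 1.58 and 1.12 (0.00238 and 0.0206). F2 rose by 0.87 in 9A1 (adjusted p = 0.0162) and gave 0.40 in 14B3 (adjusted p = 0.270), and F5 rose by 0.65 (adjusted p = 0.0376) and gave 0.29 (adjusted p = 0.373). In these within-line comparisons 36.9% (9A1) and 33.2% (14B3) of all genes were called. On Matrigel, F5 rose by 1.07 in 9A1 and 1.51 in 14B3 (adjusted p = 0.00577 and 0.000643) and F10 by 0.97 and 0.91 (0.0134 and 0.0199). There Fga rose by 3.53 in 9A1 (adjusted p = 0.000948) and gave 1.28 in 14B3 (adjusted p = 0.155), and Fgb gave 2.07 (adjusted p = 0.0449, and 0.0532 with replicates paired inside each line) and 0.72 (adjusted p = 0.584), beside 17.8% and 16.5% of all genes called. Leaving out 1 array at a time, the aggregate rise ran from 3.97 to 5.93 (Fga in 9A1), 2.45 to 3.99 (Fga in 14B3), 2.26 to 4.24 (Fgb in 9A1) and 0.86 to 2.31 (Serpind1 in 9A1), with adjusted p-values below 0.05 throughout for these. Several within-line calls were lost without 1 array, with the lowest values as follows. In aggregates F2 and F5 in 9A1 gave 0.54 and 0.30 without 9A1 aggregate replicate 1 (adjusted p = 0.168 and 0.351), and Fgb and Serpind1 in 14B3 gave 1.44 and 0.99 without 14B3 aggregate replicate 1 (0.196 and 0.104). On Matrigel F10 gave 0.65 in 9A1 without 9A1 Matrigel replicate 2 (0.128) and 0.79 in 14B3 without 14B3 basal replicate 1 (0.157), F5 gave 0.90 in 9A1 without 9A1 basal replicate 1 (0.0717), and Fgb gave 1.20 in 9A1 without that array (0.415). In a fit to the 9A1 arrays alone, Matrigel minus aggregate was -1.43 for Fga (adjusted p = 0.0890) and 0.42 for F5 (adjusted p = 0.248), and neither passed.

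A call in 1 line alone does not show that the lines differ, and the difference in response was tested directly. None of the 10 genes passed in limma for the aggregate response, the Matrigel response or Matrigel against aggregates, where 0.468%, 0.686% and 0.420% of all genes did and 2, 1 and 2 of the 10 had an unadjusted p below 0.05. For the aggregate response of F10, 14B3 minus 9A1 was 1.53 (SE 0.33, adjusted p = 0.0925). It was 1.85 without 9A1 aggregate replicate 1, where it passed, and 1.20 without 9A1 aggregate replicate 2. For Matrigel against aggregates F10 gave -1.59 (adjusted p = 0.0828). It gave -1.91 without 9A1 aggregate replicate 1, where it passed, and the range with 1 array left out was -1.91 to -1.27. The Matrigel response of Fga differed by -2.25 (adjusted p = 0.412) and its aggregate response by -1.73 (adjusted p = 0.734), and Matrigel against aggregates for F5 differed by 0.80 (adjusted p = 0.684).

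Duplicates of a group were not equally alike. In 9A1 aggregates, replicate 2 minus replicate 1 had a median of -0.68 on the log2 scale over the 10 genes, against 0.0073 over all genes, with Fga at -1.96, Fgb at -1.98, Fgg at -1.02 and Serpind1 at -1.45. Albumin showed the same order in aggregates, 13.69 against 11.30 in 9A1 and 13.16 against 11.66 in 14B3. The hepatocyte markers Afp and Ttr were also lower in replicate 2 of both lines. Apoa1 (14.40 against 14.46 in 9A1, 14.40 against 14.48 in 14B3) and Hnf4a (12.43 against 12.60, 12.65 against 12.68) went the other way. In the other 5 groups the median over the 10 genes lay between -0.08 and 0.33. Without 9A1 aggregate replicate 1 the aggregate rise was 3.59 for Fga, 2.12 for Fgb, 2.45 for F10, 0.99 for Serpind1 and 0.47 for F2, and each was still called (limma adjusted p = 2.36e-06, 0.00116, 3.03e-07, 2.87e-05 and 0.0469).

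The clotting genes were set beside a list of 20 measured genes of other liver proteins, most of them in or near coagulation and fibrinolysis. Fetuin A (Ahsg) on this list is an inhibitor of calcification and no clotting protein. In aggregates 14 of 20 rose and none fell, where 22.9% of all genes rose, with a median of 0.49, and they included factors VIII, IX and XII (F8, F9, F12), the anticoagulants protein C and protein S (Proc, Pros1) and antiplasmin (Serpinf2). The largest rises were those of the protease Hgfac (2.05, limma adjusted p = 2.68e-07), Proz (1.90), Ahsg (1.60, adjusted p = 0.00788), Pros1 (1.59, adjusted p = 2.50e-06), kininogen (Kng1, 1.40, adjusted p = 0.00331) and F13b (0.66, adjusted p = 0.0243). On Matrigel 3 of 20 rose, Ahsg (1.69, adjusted p = 0.0103), Hgfac (1.44, adjusted p = 1.78e-05) and F12 (0.41, adjusted p = 0.0167), and none fell, where 14.1% of all genes rose. Matrigel against aggregates gave 5 lower and none higher, beside 12.7% of all genes lower, among them Proz (-1.52) and Pros1 (-1.18, adjusted p = 0.00013). The aggregate count was 8 without 9A1 basal replicate 1 or 9A1 aggregate replicate 1, 9 without 14B3 basal replicate 1 and 5 in 14B3 alone. The Matrigel count was 6 with the replicate number as a block, also 6 without 9A1 Matrigel replicate 1, and 5 without either 9A1 aggregate array. The count for Matrigel against aggregates was 10 without 9A1 aggregate replicate 2.

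**Figure D4:**
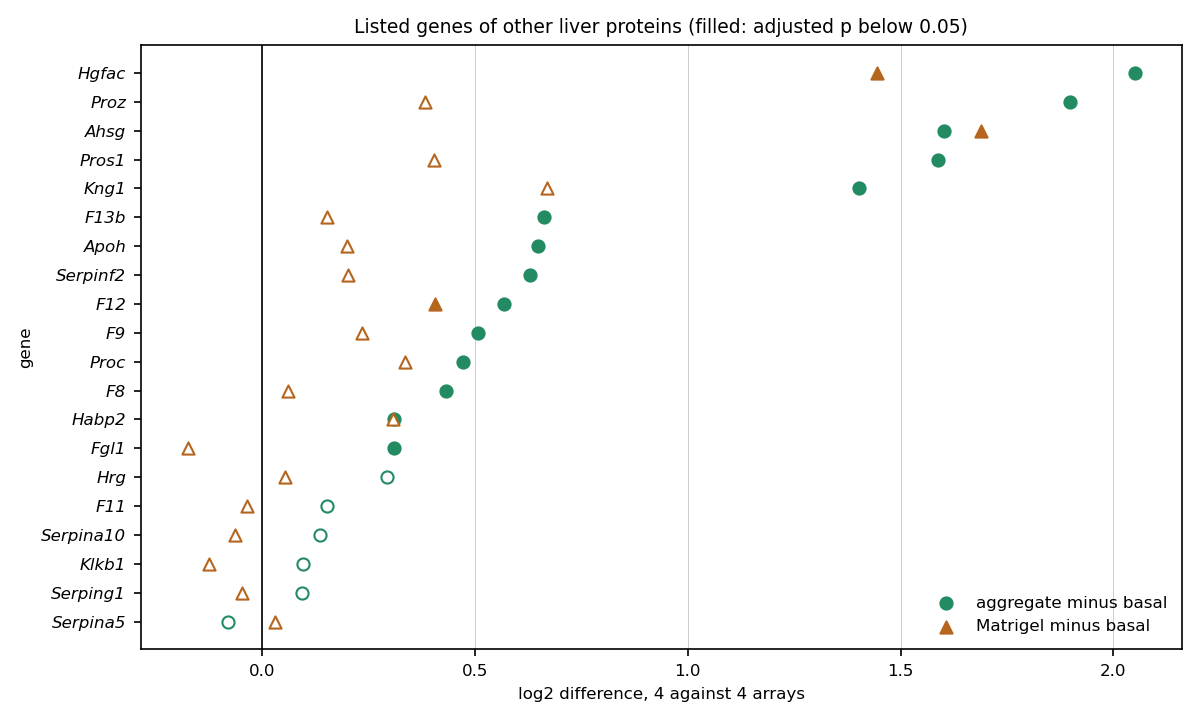
Log2 difference of the 20 listed genes of other liver proteins, Ahsg included, in aggregates and on Matrigel, each against basal culture and averaged over both lines, with filled points at a limma adjusted p below 0.05. In aggregates 14 points are filled, all above 0 and reaching 2.05, and on Matrigel 3 are filled.

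Genes that mature and export clotting factors were measured for 11 of 12 listed. In aggregates 6 rose and 3 fell, where 46.3% of all genes changed. The COPII coat genes Sar1b and Sec23a rose by 1.47 and 1.37 (limma adjusted p = 7.04e-08 and 1.13e-06), the disulfide isomerase P4hb by 1.23 (adjusted p = 3.71e-07), and Vkorc1, which recycles the vitamin K used to carboxylate factors II, VII and X, by 1.00 (adjusted p = 0.000114). The carrier of factors V and VIII out of the endoplasmic reticulum, Lman1 with Mcfd2, rose as well, Mcfd2 by 0.85 (adjusted p = 1.63e-05). The tyrosine sulfotransferase Tpst1 fell by 1.48 on the log2 scale (adjusted p = 2.38e-06), and Tpst2 and Pdia3 fell as well. On Matrigel Sar1b, Sec23a, P4hb, Vkorc1, Lman1 and Mcfd2 rose, by 0.33 to 0.87, and Tpst1 fell. Of all genes, 14.1% rose there and 28.4% changed in either direction. The list median was 0.45 on Matrigel against 0.49 in aggregates.

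Of 17 measured genes for clotting and plasminogen activation at the cell surface, 6 fell in aggregates and 2 rose, where 46.3% of all genes changed. The thrombin receptor F2r fell by 5.80 on the log2 scale (limma adjusted p = 4.09e-10), the protein C receptor Procr by 1.67, the urokinase receptor Plaur by 1.50, tissue plasminogen activator Plat by 1.44 and thrombomodulin Thbd by 1.12 (adjusted p = 1.99e-05, 1.24e-05, 3.17e-07 and 0.00138), and tissue factor F3 fell too. The transglutaminase Tgm2 rose by 1.91 (adjusted p = 0.000387) and the prothrombinase Fgl2 also rose. On Matrigel 4 rose and 3 fell, beside 28.4% of all genes changed, among them Fgl2 (1.93), Tgm2 (1.62), the tissue factor inhibitor Tfpi (0.81) and F2r (-1.68), with adjusted p-values of 6.31e-07, 0.00276, 0.00282 and 2.75e-05. Matrigel against aggregates gave 6 higher and none lower, beside 13.9% of all genes higher, and 10 in all with the replicate number as a block.

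Of 18 measured regulators of liver clotting genes, 8 rose and 6 fell in aggregates, where 46.3% of all genes changed. The nuclear receptors Nr1i2 and Nr1h4 rose by 2.23 and 1.80 (limma adjusted p = 1.23e-07 and 7.45e-07), Cebpa by 1.32 (adjusted p = 3.49e-05), Stat3, which carries the interleukin 6 signal, by 1.14 (adjusted p = 1.29e-05), and Hnf4a, which is also on the hepatocyte marker list, rose too. Foxa1 and Foxa2 fell by 1.78 and 1.51 (adjusted p = 4.51e-06 and 0.000168), and Cebpb, Cebpd and the interleukin 6 receptor subunit Il6st fell too. On Matrigel 5 rose and 2 fell, where 14.1% of all genes rose and 28.4% changed in either direction. Foxa3 at 1.20 (limma adjusted p = 0.00204) and Nr1i2 at 1.14 (adjusted p = 9.70e-05) were among those that rose. Cebpa gave -1.34 for Matrigel against aggregates (adjusted p = 0.000137).

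The genes whose profile over the 12 arrays was most like that of each clotting gene are given as a description, since all share the same cultures and lines. For the mean of Fga, Fgb and Fgg they were G6pc, Afm, Nr5a2, Aadac and Ehhadh, with Pearson correlations of 0.956 to 0.963. For F2 they were Apoh, Tbx6 and Krtap4-16 (0.915 to 0.924), and for F5 As3mt, Mcpt2 and Fxyd3 (0.937 to 0.973). For F10 they were Itih4, Tns2 and Hdac5 (0.961 to 0.974), and for Serpind1 Slc25a25, Xylb and Amy1 (0.956 to 0.973).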

How the data were processed

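Total RNA was labelled and hybridised to Affymetrix 430A arrays, per the labels' protocols. The deposited values are probe set intensity from RMA run in R 2.3.1, per the submitters' processing notes. They ran from 14.4 to 27318 on a linear scale, so log2 was taken first. Of 22690 probe sets, 20380 carried 1 symbol in GEO's platform annotation and were used, and 691 with several, 1555 with none and 64 controls were not. Each gene was read from the probe set with the highest mean, which left 12393 genes, with no filter on low values. F5 had 2 probe sets, F10 had 3, and the other clotting genes had 1.

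A mean for each of the 6 groups was estimated in limma 3.58.1 (6 residual degrees of freedom, eBayes) under R 4.3.3, after a check on simulated data. Benjamini-Hochberg adjustment ran across the whole gene table, with a threshold of 0.05. The 12 arrays limit the precision. The design calls the duplicates biological replicates and says no more, so the p-values cover just the spread among these arrays, which could be technical. Same-numbered arrays deviated together: all 15 correlations of their deviations from the group means were above 0.1 (0.1005 to 0.6442), so the number was treated as pairing, from the data and not from a label. The design without the block was kept as the main one.

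All 10 clotting genes and their probe sets are named, with up to 6 called genes of each other list per comparison by size, markers by list, and the nearest profiles. F8, F9, F12, Proc, Serpinf2 and the other smaller changes were named as called list members. The genes, lists and motifs were chosen with earlier results of these data known. Some listed genes and motifs are not reported here. Alternatives were replicate blocks, probe set choice, median centring, quantile normalization, array weights, a filter at the median gene, each line alone and each array left out. Promoter sequences were from RefSeq, and figures were drawn in Python 3.11.15 with matplotlib 3.10.9.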

Additional observations from a re-analysis of the deposited data

Results flagged for a closer look

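Prothrombin (F2) in basal culture had 1 array apart from the others. 9A1 replicate 1 read 6.99 on the log2 scale, and the other 3 basal arrays read 7.27 to 7.33. The gap to the nearest array was 0.831 of the whole range of the 4 arrays, just above Dixon's limit of 0.829. The 4 arrays hold both lines, 30 such sets of 4 were looked at (10 genes in 3 cultures), and chance flags about 1 in 20. The cause was not tested.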

How the results depend on the processing

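For single clotting genes called in the main design, each gene and comparison was counted once in each of 24 other settings. Of the 739 values counted this way, which repeat the same calls, none changed direction. The call was lost in 89 of them, and the results above give these only in part. For Matrigel against aggregates, F10 in 9A1 ran from -1.20 to -0.55 with 1 array left out, a range not given above. The replicate block within each line changed no call averaged over the lines, and only that of Fgb for Matrigel in 9A1 within a line (2.07, adjusted p = 0.0532), and the block shared by both lines changed only that of Plg (-0.29 for Matrigel against aggregates). For the lists, the block gave 6 of the other liver genes on Matrigel, in place of 3, and 10 cell surface genes for Matrigel against aggregates, in place of 6. Values near 0 changed sign: F2 between the lines with median centring (-0.0030) and quantile normalization (-0.033), F7 in aggregates with quantile normalization (-0.085), Plg on Matrigel in 9A1 alone (0.045) and F2 for Matrigel against aggregates in 14B3 alone (0.076). The mean of probe sets gave 5 other liver genes on Matrigel. In 9A1 alone, 2 clotting genes were called for Matrigel against aggregates in place of 4, with 1 other liver gene on Matrigel, and 2 other liver genes and 7 regulators for Matrigel against aggregates. In 14B3 alone the other liver genes gave 5 in aggregates and 3 for Matrigel against aggregates, the maturation genes 4 on Matrigel, and the regulators 3 on Matrigel and 6 for Matrigel against aggregates. The cause of these shifts was not tested, beyond the smaller number of arrays in a line alone. The share of all genes called in each setting is not given, here or for the counts with 1 array left out below. Shifts in these counts are therefore not read as results about these genes.

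Leaving out 1 array at a time gave 5 to 7 clotting genes called in aggregates, 3 to 4 on Matrigel, 4 to 5 for Matrigel against aggregates, 0 to 2 between the lines, and 0 to 1 for the difference between lines in the aggregate response and in Matrigel against aggregates. The list counts then ran from 8 to 14, 2 to 6 and 4 to 10 for the other liver genes (aggregates, Matrigel, and Matrigel against aggregates), 4 to 7 for maturation on Matrigel, 6 to 8 for the cell surface and 8 to 12 for regulators for Matrigel against aggregates. Uncalled values that changed sign ran from -0.10 to 0.13 (F2), -0.037 to 0.12 (Serpinc1), -0.33 to 0.0063 (Fgg) and -0.31 to 0.17 (Serpind1) between the lines, -0.026 to 0.049 (F7 in aggregates), -0.15 to 0.082 (Serpinc1) and -0.17 to 0.030 (Plg) on Matrigel, and -0.43 to 0.074 (Fgg, Matrigel against aggregates).

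All 10 clotting genes had a mean below the median gene, so the filter at the median gave no value for them. Low signal over background and the number of arrays limit what can be shown of all of them.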
